A study of Mus musculus with 2 samples.

Results

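Genes of the blood vessel wall were followed in long-read RNA sequencing of mouse gastrocnemius, the large calf muscle. They are 10 genes chosen by name, 5 as endothelial genes (Pecam1, Cdh5, Cldn5, Fabp4 and Kdr) and 5 as genes of vascular smooth muscle and mural cells (Myh11, Cnn1, Tagln, Myl9 and Rgs5). The members are 10 of 15747 annotated genes with at least 1 read, and each had reads in both libraries. Total RNA came from B6CASTF1/J female mice aged 14 days, and 2 µg went into each of 2 libraries, biological replicates 1 and 2 of a single group. The label of replicate 1 speaks of 3 females, whereas for replicate 2 no number of animals is stated. The donor identifier is shared, so the libraries may not stand for separate animals, and there is no contrast between conditions. Replicate 1 held 1316937 reads and replicate 2 held 1204188, of which 1248854 and 1106450 fell on annotated genes. Levels are in CPM, reads scaled to a total of 1000000 gene reads, so that 1 read gives 0.801 CPM in replicate 1 and 0.904 in replicate 2. Intervals, floors and p-values from reads cover counting error only, since no molecular identifiers tell copies of a molecule apart.

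Endothelial cells line blood vessels and form the capillaries that run along muscle fibres. They are held together by adhesion molecules and tight junctions, and they grow and survive under the signal of vascular endothelial growth factor. Smooth muscle cells surround arteries and arterioles and contract through their own isoforms of myosin, calponin and myosin light chain, while pericytes sit on capillaries. In whole muscle these cells are a minority beside the fibres, whose 6 marker genes held 294041 CPM in replicate 1 and 217806 CPM in replicate 2 here, and in bulk RNA fewer cells of a type and less RNA per cell cannot be told apart.

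The sequences that carry the splice findings are given first. Exon numbers follow the annotated transcript named, sequences are those of the reference transcripts on GRCm38, read 5′ to 3′ on the minus strand, and capitals mark the exon in question between 15 coding bases of each neighbour in lower case. In Myh11, smooth muscle myosin heavy chain (chromosome 16, 14194535 to 14291372), a 21-base exon (14248580 to 14248600) is exon 6 of Myh11-204. It inserts residues beside the nucleotide pocket of the motor and makes the form known as SM-B, and its absence makes SM-A. A 39-base exon near the 3′ end (14198050 to 14198088), exon 41 of Myh11-202, ends the reading frame early and gives the shorter tail SM2 in place of SM1. Only its 31 coding bases are shown, up to the stop codon.
Myh11 21-base exon: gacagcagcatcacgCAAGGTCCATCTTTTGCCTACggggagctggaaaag
Myh11 39-base exon: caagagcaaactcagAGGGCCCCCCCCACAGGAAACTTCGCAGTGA

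Pecam1, the adhesion molecule CD31 (chromosome 11, 106654217 to 106750628), has a string of short exons for its cytoplasmic tail. Exons 13 and 14 of Pecam1-204 each encode an inhibitory tyrosine motif that, once phosphorylated, binds the phosphatase SHP-2. The 4 tail exons span 106681032 to 106681085 (exon 12), 106679549 to 106679611 (exon 13), 106671742 to 106671798 (exon 14) and 106662002 to 106662024 (exon 15). Exons 12, 13 and 14 have 54, 63 and 57 bases, all multiples of 3. Exon 15 has 23, so reads with and without it enter the last exon in different frames.
Pecam1 exon 12: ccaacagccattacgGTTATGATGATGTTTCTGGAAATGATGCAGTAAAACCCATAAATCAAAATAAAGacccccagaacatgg
Pecam1 exon 13: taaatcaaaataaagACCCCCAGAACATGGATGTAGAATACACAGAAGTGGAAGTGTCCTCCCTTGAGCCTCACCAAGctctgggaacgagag
Pecam1 exon 14: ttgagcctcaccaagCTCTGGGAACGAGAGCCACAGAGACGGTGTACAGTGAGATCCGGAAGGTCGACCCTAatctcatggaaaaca
Pecam1 exon 15: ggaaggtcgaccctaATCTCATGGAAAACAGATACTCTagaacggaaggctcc

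Both sets of genes were low but similar between the libraries in total CPM over all their reads. The endothelial members summed to 461 reads (369 CPM) in replicate 1 and 415 reads (375 CPM) in replicate 2, a mean of 372 ± 4.20 CPM (SD, n = 2). The smooth muscle and mural members summed to 378 reads (303 CPM) in replicate 1 and 319 reads (288 CPM) in replicate 2, a mean of 295 ± 10.2 CPM. All 10 together held 0.0668% ± 0.000596 of gene reads. The sums hide differences between members, which went in opposite directions.

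Fabp4, a fatty acid carrier of capillary endothelium and of adipocytes (chromosome 3, 10204088 to 10208576), had 147 reads (118 CPM) in replicate 1 and 242 reads (219 CPM) in replicate 2, a mean of 168 ± 71.4 CPM (SD, n = 2). Cldn5, the tight junction protein claudin-5 (chromosome 16, 18776847 to 18778262), had 189 reads (151 CPM) in replicate 1 and 134 reads (121 CPM) in replicate 2, or 136 ± 21.4 CPM. These 2 genes stood above the other endothelial members in both libraries. Pecam1 had 61 reads (48.8 CPM) in replicate 1 and 19 reads (17.2 CPM) in replicate 2, or 33.0 ± 22.4 CPM. Cdh5, VE-cadherin of endothelial junctions (chromosome 8, 104101625 to 104144511), had 38 reads (30.4 CPM) in replicate 1 and 11 reads (9.94 CPM) in replicate 2, or 20.2 ± 14.5 CPM. Kdr, the growth factor receptor VEGFR2 (chromosome 5, 75932827 to 75978458), had 26 reads (20.8 CPM) in replicate 1 and 9 reads (8.13 CPM) in replicate 2, or 14.5 ± 8.97 CPM. Pecam1, Cdh5 and Kdr kept this order in both libraries, although their ranges over the libraries overlap.

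Among mural genes Rgs5, a regulator of G protein signalling and a pericyte marker (chromosome 1, 169655501 to 169695813), had 228 reads (183 CPM) in replicate 1 and 109 reads (98.5 CPM) in replicate 2, or 141 ± 59.4 CPM (SD, n = 2). Myl9, the regulatory light chain of smooth muscle myosin (chromosome 2, 156775420 to 156781658), had 110 reads (88.1 CPM) in replicate 1 and 180 reads (163 CPM) in replicate 2, or 125 ± 52.8 CPM. Rgs5 led Myl9 in replicate 1, and Myl9 led in replicate 2. Tagln, the actin-binding protein SM22 (chromosome 9, 45929619 to 45936058), had 14 reads (11.2 CPM) in replicate 1 and 19 reads (17.2 CPM) in replicate 2, or 14.2 ± 4.22 CPM. Its single-exon reads, 2 in each library, lie in a stretch of the last exon that Gm48529 covers on the opposite strand (3 reads in replicate 1), so their gene is uncertain. Models of Pcsk7, also on that strand, reach only the far end of the exon, which those reads do not cover. Myh11 had 25 reads (20.0 CPM) in replicate 1 and 2 reads (1.81 CPM) in replicate 2, or 10.9 ± 12.9 CPM. Cnn1, calponin of the contractile apparatus (chromosome 9, 22099216 to 22109630), had 1 read (0.801 CPM) in replicate 1 and 9 reads (8.13 CPM) in replicate 2, or 4.47 ± 5.19 CPM. The 2 reads of Myh11 and the 1 read of Cnn1 lie below the 3 reads that a count of 0 allows, a floor of 2.40 CPM for replicate 1 and 2.71 CPM for replicate 2.

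By mean CPM the order was Fabp4, Rgs5, Cldn5, Myl9, Pecam1, Cdh5, Kdr, Tagln, Myh11 and Cnn1. The only neighbours in it whose library values do not overlap are Myl9, with 88.1 CPM at its lowest, and Pecam1, with 48.8 CPM at its highest. In long reads a transcript is counted once whatever its length, so CPM were not divided by length in this order. Per kilobase of the known model with most reads, the mean level ran from 188 CPM per kilobase for Fabp4 through 111 for Myl9, 96.2 for Cldn5 and 34.3 for Rgs5 to 10.2 for Pecam1. It was 8.90 for Tagln, 5.05 for Cdh5, 2.44 for Kdr, 1.88 for Cnn1 and 1.67 for Myh11. The first place of Fabp4 depends on the choice of models. Its longest known model is an unspliced one of 4231 bases. Per kilobase of the longest known models Fabp4 had 39.8 CPM and lay below Myl9 and Cldn5, and in full splice models it had 46.7 CPM and lay below Cldn5, Rgs5 and Myl9. The same 4 genes lead in all 4 of these orders.

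**Figure D1:**
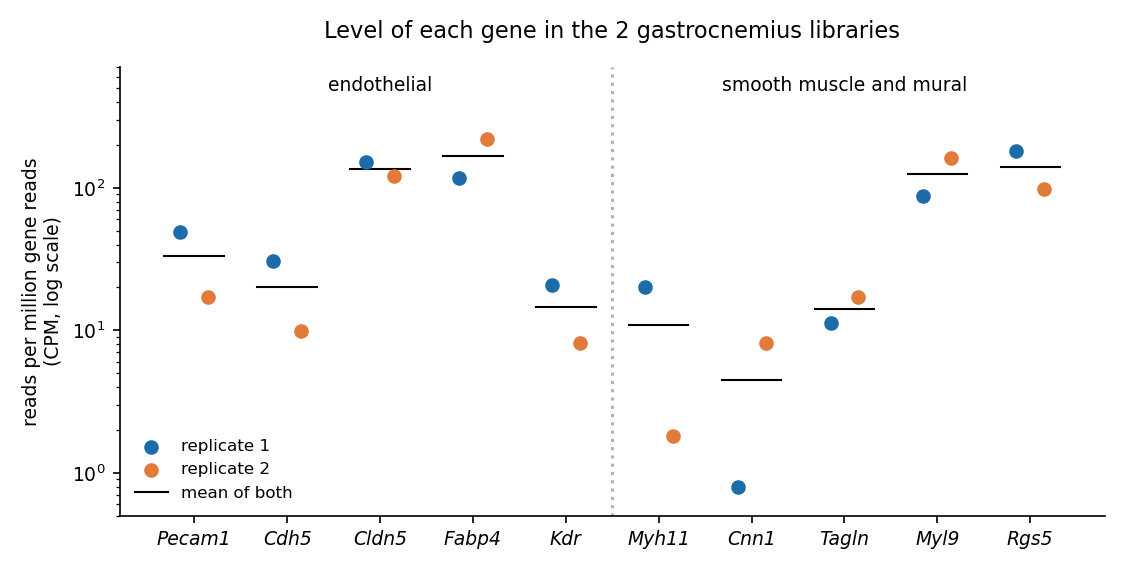
Level in CPM (log scale) of the 5 endothelial genes, left of the dotted line, and the 5 smooth muscle and mural genes, right of it. Each dot is a library and each bar the mean of both; Fabp4, Cldn5, Myl9 and Rgs5 lie between 88.1 and 219 CPM, and all other members lie at or below 48.8 CPM.

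The libraries were compared gene by gene, which tests these libraries and not animals. Reads of a gene against all other gene reads were tested by Fisher's exact test, two-sided, with Benjamini-Hochberg adjustment over the 8973 genes whose summed reads reached 10. A gene was called at an adjusted p under 0.05 and a log2 ratio (replicate 1 over replicate 2, TMM-scaled) of at least 1 in size. TMM scaling places log2 ratios 0.29 below those of the CPM given above. Fisher's test used reads without TMM scaling, so its p-values refer to the ratio scaled by the total and not to the TMM-scaled ratio. All 10 members were tested. Of them 3 were called higher in replicate 1, against 8.87% of all genes tested, and 3 higher in replicate 2, against 11.4% of all genes tested. The median log2 ratio was 1.04 over the endothelial and -0.87 over the smooth muscle and mural members, against 0.01 over all genes tested. These medians are the values of Kdr and Tagln, neither of which was called.

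Pecam1 was higher in replicate 1 with a log2 ratio of 1.20 (Fisher's exact test, adjusted p = 0.000188), and so was Cdh5 with 1.30 (adjusted p = 0.00268). Kdr had a log2 ratio of 1.04 in the same direction and missed the threshold by Fisher's exact test (adjusted p = 0.0509). Fabp4 was higher in replicate 2 with a log2 ratio of -1.18 (Fisher's exact test, adjusted p = 2.8e-08). Cldn5, at a log2 ratio of 0.04, was not called (Fisher's exact test, adjusted p = 0.124). Its ratio of replicate 1 to replicate 2 was 1.02 with a counting interval of 0.817 to 1.29 (exact, 95%). The endothelial members thus did not share a direction.

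Myh11 was higher in replicate 1 with a log2 ratio of 2.94 (Fisher's exact test, adjusted p = 0.000133). Since replicate 2 had 2 reads, the size is loosely bounded, a ratio of 9.08 with an exact 95% counting interval of 2.26 to 79.1. Cnn1 was higher in replicate 2 with a log2 ratio of -3.04 (Fisher's exact test, adjusted p = 0.0292), and the ratio of replicate 2 to replicate 1 was 12.4 with an exact interval of 1.72 to 543. Myl9 was higher in replicate 2 with a log2 ratio of -1.17 (Fisher's exact test, adjusted p = 2.7e-06). Rgs5 passed the test (Fisher's exact test, adjusted p = 6.1e-07), but its log2 ratio of 0.60 (0.89 when scaled by the total) was below the limit on size. Tagln, at -0.87, was not called (Fisher's exact test, adjusted p = 0.385). The contractile partners Myh11, Cnn1 and Myl9 thus differed between the libraries in unlike directions.

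Transcript length moved with these ratios. Averaged over reads, models were 2347 bases long in replicate 1 and 1545 in replicate 2. Over all genes tested the median log2 ratio was -1.32 for 1129 genes of up to 1000 bases and 0.50 for 2038 genes over 4000 bases. Fabp4 (896 bases) and Myl9 (1128 bases), the shortest members, were higher in replicate 2, and the members with log2 ratios above 1 (Pecam1, Cdh5, Kdr and Myh11) had models of 3233 to 6549 bases. Of the others, Rgs5 (4096 bases) had 0.60, Cnn1 (2381 bases) -3.04, Tagln (1595 bases) -0.87 and Cldn5 (1416 bases) 0.04. Across the 10 members, which share the libraries, Spearman's rho of length and log2 ratio was 0.77, given as a description. After removal of the trend over all genes it was 0.64, and whether a relation to length remained among the members was not tested. With the trend over all genes removed and an exact binomial test in place of Fisher's, 1 member was called higher in replicate 1 (3.47% of all genes tested) and 1 higher in replicate 2 (6.52%). These were Myh11, with a log2 ratio of 2.44 (exact binomial test, adjusted p = 0.0156), and Cnn1, with -3.16 (adjusted p = 0.0136). The log2 ratios of Pecam1 and Cdh5 became 0.87 and 0.87, that of Fabp4 -0.18 and that of Myl9 -0.42, and none was called. Cldn5, whose model has 1416 bases, moved to 0.51 and Rgs5 to 0.17. The median log2 ratio became 0.53 over the endothelial and -0.42 over the smooth muscle and mural members.

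**Figure D2:**
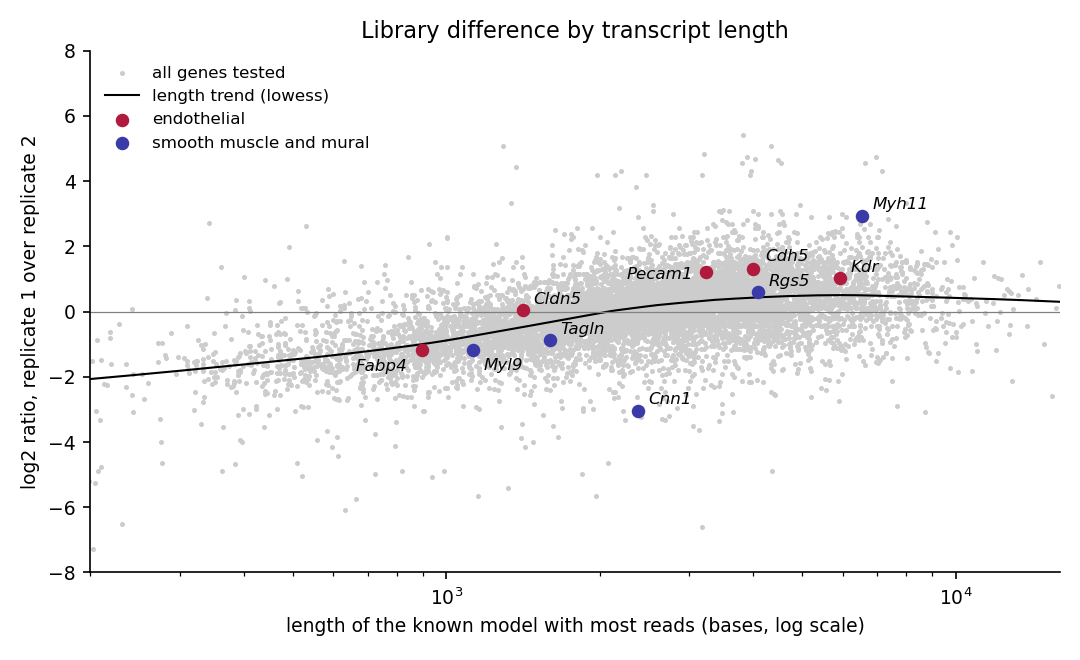
Log2 ratio of replicate 1 over replicate 2 (y axis) against the length in bases of the gene's known model with most reads, or of any model where none is known (x axis, log scale). Grey dots are the genes tested, of which 76 of 8973 lie outside the axis of 200 to 16000 bases, the line is their lowess trend, and colours mark the endothelial and the smooth muscle and mural genes; Fabp4 and Myl9 lie near the trend at short lengths, while Myh11 lies far above it and Cnn1 far below.

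How much of each transcript the reads covered differed among the members. The authors' tables class each model as known (an annotated intron chain), NIC or NNC (unannotated chains of known splice sites or with another site), incomplete splice match (ISM, part of an annotated chain) or genomic (overlapping the gene without its splicing). Known, NIC and NNC models are called full splice models here. They held 71.8% of the endothelial members' reads in replicate 1 and 49.9% in replicate 2, and 87.8% and 76.8% of those of the smooth muscle and mural members. The endothelial value is carried by Fabp4. Without it the other endothelial members had 91.4% in replicate 1 and 91.9% in replicate 2, and without Fabp4 and the single-exon Cldn5 they had 78.4% and 64.1% (both left out after the values were seen). Over all annotated genes the share was 89.1% in replicate 1 and 80.6% in replicate 2. Cldn5, which has a single exon, had all its reads in its known model and gives no information on splicing.

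Fabp4 was the member with the lowest share in full splice models in either library, 29.9% in replicate 1 (Wilson interval at the 95% level, as for all shares, 23.1 to 37.8%) and 19.8% in replicate 2 (15.3 to 25.3%). Of 5629 multi-exon genes with at least 10 reads in each library, 201 had a lower share in the summed reads, and the median gene had 91.7% in replicate 1 and 83.3% in replicate 2. The missing part was the 5′ end. An ISM model of the last 2 exons held 68 of 147 reads in replicate 1 (46.3%, interval 38.4 to 54.3%) and 162 of 242 in replicate 2 (66.9%, interval 60.8 to 72.6%). An ISM model of the last 3 exons held 35 and 32 reads, and the complete 4-exon transcript Fabp4-201 held 38 and 35. The last intron was spliced in 95.9% of the reads in replicate 1 and 94.6% in replicate 2, but the first intron was covered in 25.9% and 14.9%. In full splice models Fabp4 thus had 44 reads in replicate 1 and 48 in replicate 2, and it was not called there (log2 ratio -0.80, Fisher's exact test, adjusted p = 0.27). Fabp4-202, an annotated model of 4231 bases without splicing, took 3 reads in replicate 1 and 12 in replicate 2 and counts as known.

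The other members were more complete. Rgs5 had 86.4% of its reads in full splice models in replicate 1 (interval 81.3 to 90.3%) and 71.6% in replicate 2 (62.5 to 79.2%). This was the only member called of the 6 tested for that share (Fisher's exact test, adjusted p = 0.0126), against 16.5% of the 5629 genes. The complete transcript Rgs5-201 held 192 reads in replicate 1 and 76 in replicate 2. A single-exon ISM model of its last exon (169692179 to 169695813) held 27 reads in replicate 1 and 28 in replicate 2, so the truncated reads were a larger part of replicate 2. Myl9 had 90.9% in replicate 1 (84.1 to 95.0%) and 79.4% in replicate 2 (73.0 to 84.7%), and was not called (Fisher's exact test, adjusted p = 0.0716). Cdh5 had 63.2% in replicate 1 and 54.5% in replicate 2, and its genomic reads, 8 and 5, lay in single-exon models at the 3′ end of the gene. Pecam1 had 88.5% and 78.9%, Tagln 78.6% and 78.9%, and Kdr 76.9% and 44.4%. Kdr-201, with 30 exons, was read whole by 15 reads in replicate 1 and 4 in replicate 2. For Myh11, 23 of 25 reads in replicate 1 and 1 of 2 in replicate 2 were in full splice models, and for Cnn1 1 of 1 and 8 of 9 were.

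**Figure D3:**
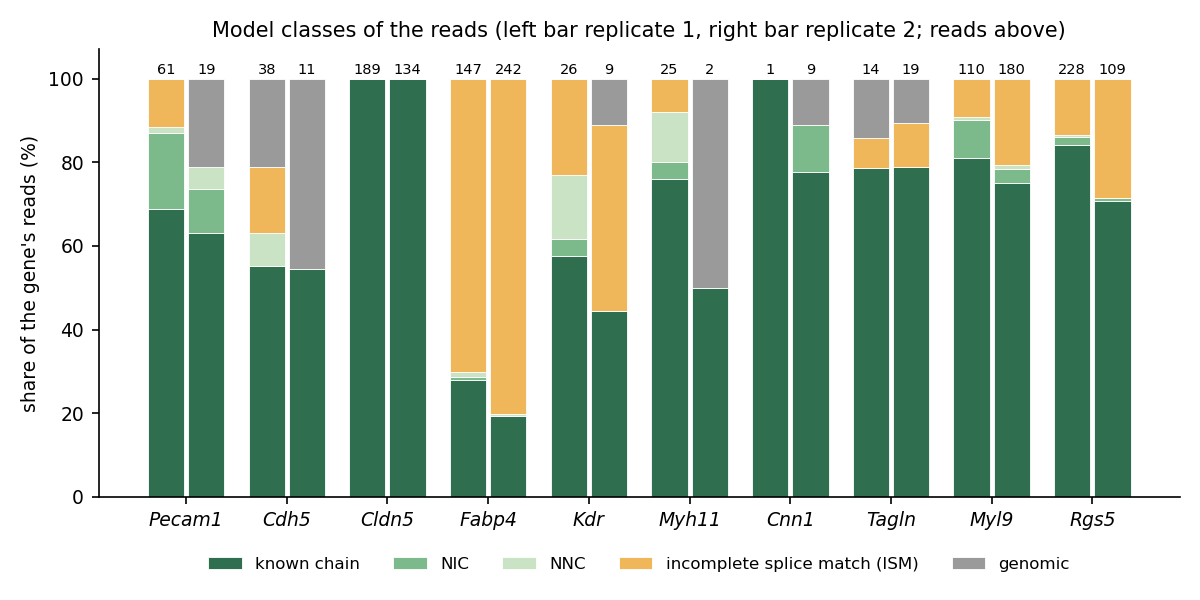
Share of each gene's reads (y axis, percent) in the authors' model classes, with the left bar of each pair for replicate 1 and the right bar for replicate 2, and the number of reads above. ISM reads make up most of Fabp4 in both libraries, genomic reads appear in Cdh5 and Tagln in both, and Cldn5 is wholly in its known model.

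Splice forms of Myh11 were read almost only in replicate 1. The 21-base exon of SM-B was included in 11 of 23 informative reads in replicate 1 (47.8%, interval 29.2 to 67.0%) and in the 1 informative read of replicate 2. The 39-base exon of SM2 was included in 2 of 25 reads in replicate 1 (8.0%, interval 2.22 to 25.0%) and in 0 of 1 in replicate 2. SM-A and SM-B forms were thus both present at similar read numbers, and most tails were of the SM1 type. Reads that covered both sites showed the pairs directly. In replicate 1, 12 had neither exon, 10 had the 21-base exon alone and 1 had both. The known models Myh11-201, without either exon, and Myh11-204, with the 21-base exon, held 11 and 8 reads in replicate 1, and in replicate 2 they held 0 and 1. With 1 informative read in replicate 2 the libraries cannot be compared for these exons.

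The cytoplasmic tail of Pecam1 was alternatively spliced in both libraries. Exon 12 was included in 49 of 55 informative reads in replicate 1 (89.1%, interval 78.2 to 94.9%) and in 13 of 15 in replicate 2 (86.7%). Exon 13 was in every informative read, 55 and 15. Exon 14 was included in 29 of 55 reads in replicate 1 (52.7%, interval 39.8 to 65.3%) and in 5 of 15 in replicate 2 (33.3%, interval 15.2 to 58.3%). Exon 15 was included in 20 of 55 reads in replicate 1 (36.4%, interval 24.9 to 49.6%) and in 4 of 15 in replicate 2 (26.7%, interval 10.9 to 52.0%). Exon 13, with the first of the inhibitory motifs, was thus constant in these reads, and exon 14, with the other, was absent from about as many reads as held it in replicate 1.

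Each long read also shows which tail exons go together. The most common tail lacked exons 14 and 15, the form of Pecam1-203, with 21 of 55 reads in replicate 1 and 9 of 15 in replicate 2. In the summed reads this was 42.9% (interval 31.9 to 54.5%). The tail with all 4 exons had 13 reads in replicate 1 and 3 in replicate 2, and that lacking exon 15 alone had 11 and 1. The tail lacking exon 14 alone had 4 reads in replicate 1 and 0 in replicate 2. Exon 12 was skipped with exons 13, 14 and 15 present in 3 reads in replicate 1 and 1 in replicate 2, with exons 13 and 14 present in 2 and 0, and with exon 13 alone present in 1 and 1. All 7 tails seen in the 70 reads thus hold exon 13, and 5 of them lack at least 1 of exons 14 and 15.

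**Figure D4:**
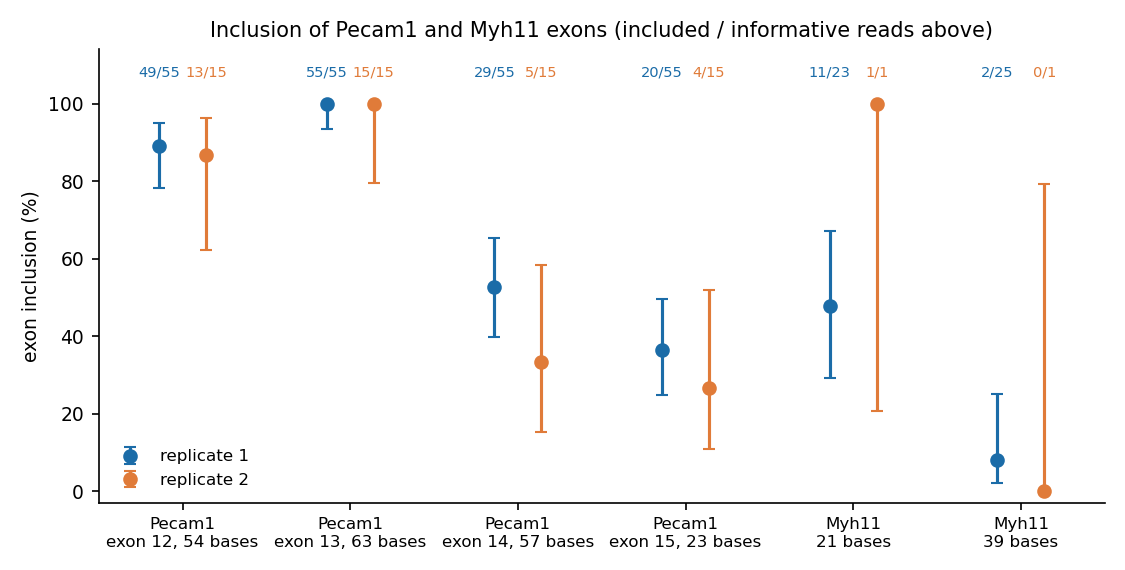
Inclusion (y axis, percent of informative reads) of 4 Pecam1 tail exons and of the 21-base and 39-base exons of Myh11, with dots for the libraries, bars for 95% Wilson intervals, and included over informative reads printed above. Pecam1 exon 13 is at 100% in both libraries, exons 14 and 15 lie between 26.7 and 52.7%, and the Myh11 values of replicate 2 rest on 1 read.

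An alternative exon was counted as one included in 10 to 90% of at least 10 informative reads in the sum. Of 103 member exons with that many reads, 81 were never skipped and 4 were alternative, exons 12, 14 and 15 of Pecam1 and the 21-base exon of Myh11. Cldn5 and Cnn1 had 0 exons with enough reads and were not evaluated. The 39-base exon of Myh11 lay just below the limit, at 7.69% of the summed reads. Inclusion was tested between the libraries in 24 member exons with at least 10 informative reads in each. By Fisher's exact test 0 were called, and 0 had an unadjusted p under 0.05, against 0.0189% called of the 36977 exons tested. Most of the 24 had no skipping read in either library and could not be called. Of the alternative exons tested over all genes, 5 of 1006 were called. The absence of a call among the members thus does not show equal inclusion.

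Unannotated chains of the members were mostly read once. There were 32 of them with 43 reads in replicate 1 and 14 in replicate 2, and 24 had a single read. Those found in both libraries were 3, in Pecam1, Myl9 and Rgs5. The Myl9 chain had a first exon 32 bases longer (ending at 156775538 in place of 156775506), with a splice donor that the annotated 3-exon model Myl9-204 also uses. It held 10 of the 100 reads with 4 exons in replicate 1 (10%, interval 5.52 to 17.4%) and 6 of 142 in replicate 2 (4.23%, interval 1.95 to 8.91%). The shares were not shown to differ (Fisher's exact test, two-sided, p = 0.113, not adjusted). With 10 and 6 reads of this chain a difference is not excluded. The Pecam1 chain, with 3 reads in replicate 1 and 1 in replicate 2, is the tail that lacks exon 12 and holds exons 13, 14 and 15. The Rgs5 chain of 3 exons, which joins the first exon to the fourth, had 2 reads in replicate 1 and 1 in replicate 2.

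Further endothelial genes were present with the members. All 40 genes of a list of other endothelial genes had reads, with 1373 CPM in replicate 1 and 1012 CPM in replicate 2 in total. The highest were Cav1, the coat protein of caveolae (133 ± 71.5 CPM, SD, n = 2), the surface antigen Cd34 (102 ± 16.5 CPM) and the junction protein Esam (99.7 ± 2.89 CPM). Of 36 tested, 5 were called higher in replicate 1, beside 8.87% of all genes tested, and 0 in replicate 2, beside 11.4%. They were Aqp1, a water channel, with 110 reads in replicate 1 and 33 in replicate 2 (log2 ratio 1.27), the guidance receptor Robo4 (34 and 8 reads, 1.58), the sphingosine 1-phosphate receptor S1pr1 (25 and 7, 1.32), the arterial Notch ligand Dll4 (23 and 7, 1.21) and the transcription factor Sox17 (23 and 5, 1.66). The list's median log2 ratio was 0.03. After the length trend was taken out, 2 were called higher in replicate 1 (Aqp1 and Sox17) and 0 in replicate 2, beside 3.47% and 6.52% of all genes. Lymphatic markers had few reads. Flt4 had 3 in replicate 1 and 2 in replicate 2, and Lyve1 and Prox1 had 1 each in replicate 1 and 0 in replicate 2.

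Of 30 other smooth muscle and pericyte genes, 29 had reads, and Myocd, the smooth muscle coactivator myocardin, had 0 in both libraries. The top of the list, Tpm1 (24629 ± 3169 CPM, SD, n = 2) and Tpm2 (3903 ± 909 CPM), is also expressed by muscle fibres. Next were Synpo2, an actin-binding protein (213 ± 113 CPM), and Acta2, the smooth muscle actin (207 ± 80.7 CPM). Whether reads of these and the other genes on the list came from vessels or from muscle fibres was not tested. Of 24 tested, 1 was called higher in replicate 1, beside 8.87% of all genes tested, and 4 in replicate 2, beside 11.4%. The first was caldesmon, Cald1, with 27 reads in replicate 1 and 5 in replicate 2 (log2 ratio 1.89). Those in replicate 2 were Acta2 (187 and 292 reads, -1.10), Mustn1 (44 and 93, -1.53), the pericyte gene Ndufa4l2 (20 and 35, -1.24) and Sncg (2 and 11, -2.61). The list's median log2 ratio was -0.39. Once the length trend was removed, 0 were called higher in replicate 1 (3.47% of all genes) and 2 in replicate 2 (6.52%). These were Acta2 (log2 ratio -1.08) and Mcam, an adhesion molecule of mural and endothelial cells (-1.11), which was not called before.

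Several members are not confined to vessels, and the markers of other sources are given for that reason. Adipocytes also express Fabp4. Of 8 adipocyte genes 7 had reads, with 64.1 CPM in replicate 1 and 47.9 CPM in replicate 2 in total, Adipoq had 5 and 3 reads, and Lep had 0 in both. Plin4 held 48.8 CPM of the total in replicate 1 and 16.3 CPM in replicate 2. The other adipocyte genes summed to 15.2 and 31.6 CPM, of which Cfd held 3.20 and 16.3 CPM. Retn (1 and 5 reads) and Slc36a2 (3 and 5) also had more reads in replicate 2. Adipoq and Plin1 (2 and 0) had fewer, and Cidec had 4 in each. Of the 2 tested, Plin4 was higher in replicate 1 (61 and 18 reads) and Cfd in replicate 2 (4 and 18 reads). Platelets and leukocytes also carry Pecam1. Of 9 blood and immune genes 8 had reads, with 84.9 CPM in replicate 1 and 82.2 CPM in replicate 2 in total. Lyz2 was the highest of them by mean CPM, with 40 reads in replicate 1 and 29 in replicate 2, and Csf1r had 21 and 16. Ptprc and Itga2b, which mark leukocytes and megakaryocytes, had 1 read each in replicate 1 and 0 in replicate 2, and Itgam had 0 in both. Of 4 tested, Mrc1 was higher in replicate 1 (19 and 4 reads) and Pf4 in replicate 2 (15 and 38 reads). Fibroblasts can express Tagln and Myl9. The 8 fibroblast genes summed to 8535 CPM in replicate 1 and 3932 CPM in replicate 2, and Col1a1 and Fn1 were called higher in replicate 1. Col1a1 and Col3a1 held most of that sum, 4 of the 8 genes had log2 ratios below 0 (-0.21 to -0.16), and the list's median was 0.18. Once the length trend was taken out Plin4 was called, and Cfd, Mrc1, Pf4, Col1a1 and Fn1 were not. The part of these cells in the members' values was not tested.

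Some near relatives of the members had more reads than the members. Myl12a, a light chain of non-muscle myosin and close in sequence to Myl9, had 593 reads in replicate 1 and 953 in replicate 2, and Myl6 had 136 and 347, both called higher in replicate 2. Fabp3, the fatty acid carrier of muscle fibres, had 2127 reads in replicate 1 and 1670 in replicate 2, and Fabp5 had 8 and 7. Non-muscle myosin Myh9 had 26 and 5 reads, called higher in replicate 1, and Myh10 had 8 and 2. Cnn2 had 29 and 29 reads, Cnn3 56 and 43, Tagln2 34 and 21, Rgs4 8 and 4, Myl12b 27 and 34, and Tagln3 0 in both. Reads of Cnn2 and of Cnn3 outnumbered those of Cnn1 in each library. With the length trend removed Myl12a was called in the same direction, and Myl6 and Myh9 were not called.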

How the data were processed

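The values are raw counts of reads for every transcript model, deposited by the authors per library with the model's class, and an annotation of the models' exons; the annotation's attributes name TALON, and notes beside the files name mm10 (GRCm38) and GENCODE M21. Neither aligner, versions nor platform is given in the sources used here. Lengths and ends of models, also as the authors deposited them, are those of the model and not of single reads.

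Counts were summed over all models assigned to an annotated gene, with spike-ins and unannotated loci left out of totals. Chains were matched between libraries by their introns. TMM factors came from edgeR 4.0.16 (R 4.3.3) and size factors from DESeq2 1.42.0, which were used for scaling only. Tests used scipy 1.17.1, and the length trend was a lowess fit (statsmodels 0.14.6, fraction 0.3). The log2 ratio used a prior count of 0.5. TMM shifts log2 ratios by -0.29 from scaling by the total. Reads with both junctions of an exon were counted against reads that skip it. Each table over many genes was tested on simulated data. With 1 library on each side, p-values hold no spread between animals. The members and lists were chosen with earlier results of these data known. Named are the 10 members, the 3 highest and the called genes of each vessel list (at most 6), near relatives, chains with at least 2 reads or in both libraries, and alternative exons. Dll4, Sox17, Cald1, Sncg, Flt4, Lyve1, Prox1, Myocd, Adipoq, Lep, Plin1, Retn, Slc36a2, Cidec, Ptprc, Itga2b, Itgam, Lyz2, Csf1r, Plin4, Cfd, Mrc1, Pf4, Col1a1, Col3a1, Fn1, Mcam, Pcsk7 and Gm48529 fall outside this rule and were named after their values were seen.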

Additional observations from a re-analysis of the deposited data

Results flagged for a closer look

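Reads outside the gene counts appeared over Rgs5. A single-exon model of an unannotated locus on the strand opposite Rgs5, lying within its last exon, held 17 reads in replicate 1 and 31 reads in replicate 2, against 228 and 109 reads of Rgs5 itself. It was picked out because both counts exceed the 3 reads that a count of 0 allows and no gene count uses them. The model is listed at a single base (169692617) in replicate 1 and from 169692614 to 169692938 in replicate 2. A single-exon read has no splice site that shows its strand, and the origin of these reads was not tested.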

How the results depend on the processing

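Members called higher in replicate 1 were 3 in the main analysis, 3 to 4 under every other scaling, filter or choice of models (4.30 to 12.5% of all genes), and 1 with the length trend removed (3.47%). The adjusted p of Fisher's test does not depend on the scaling or the prior count. Only the limit on size could change a call in those settings. Members called higher in replicate 2 were 3, also with DESeq2's factors or a prior count of 2. They were 2 with no filter (6.09% of all genes) and 2 with a minimum of 20 reads (14.0%). They were 1 when scaled by the total (9.00%), in full splice models (11.4%), in known models (10.5%) and with the length trend removed (6.52%). With a minimum of 20 reads, in full splice models and in known models only 9 members were tested. Cnn1 had too few reads there and was left out, so its call was not tested in these settings. Over all genes the trend removed left 311 and 585 calls. The log2 ratio of Cldn5 reversed to -0.19 in full splice models and -0.13 in known models, without a call. Kdr was called with a minimum of 20 reads (adjusted p = 0.0419, Fisher's exact test) and in full splice models (log2 ratio 1.55), and Cnn1 was not with no filter (adjusted p = 0.0506). The endothelial sum moved to 347 CPM with all reads as the total, 265 CPM in full splice models, 153 CPM per kilobase of the longest known model and 302 CPM per kilobase of the model with most reads, the last chosen after seeing the data. The smooth muscle and mural sum moved to 276, 158 and 158 CPM under the first, the third and the last of these. Leaving out a library gave 369 to 375 CPM and 288 to 303 CPM. In full splice models the endothelial sum was less alike, 297 CPM in replicate 1 and 232 CPM in replicate 2. The smooth muscle and mural sum was 298 and 275 CPM there. With genomic reads left out the difference in full splice share reversed, without a call, to -11.5 percentage points in Pecam1 and 3.43 in Tagln. Inclusion of the 5 exons moved by less than the spread between libraries, or within its interval for Myh11, with full splice models or either junction. Leaving out replicate 1 moved all 5. Pecam1 exon 14 went from 48.6 to 33.3%, exon 15 from 34.3 to 26.7% and exon 12 from 88.6 to 86.7%. The 21-base exon of Myh11 went from 50 to 100% and the 39-base exon from 7.69 to 0%, each then resting on 1 read. Leaving out replicate 2 moved them less. No paired analysis was possible because the labels give a single group. The cause of these changes was not tested. In replicate 2 Myh11 had 2 reads and in replicate 1 Cnn1 had 1, so both ratios are loosely bounded.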
